A study of Homo sapiens with 10 samples.

Results

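ORC1B14 and ORC1BP32, 2 lines of HCT116 cells that both carry a mutated ORC1 gene, were compared with each other, to show how far lines with the same mutated gene differed. The rule took the 2 arrays titled ORC1B14 and the 2 arrays titled ORC1BP32, 4 of the 10 arrays of the study, and set them side by side by replicate number. HCT116 is an established human colorectal carcinoma line. The other 6 arrays were 2 of wild-type HCT116 (WT) and 2 each of ORC2B2 and ORC2BP8, lines with a mutated ORC2 gene. All 5 lines were grown untreated at 37 °C in 5% CO2, and total RNA was hybridised to Affymetrix arrays. The labels give a name to each line but neither the kind of mutation, nor how the lines were made, nor whether a line is 1 clone. The titles call the replicates biological. No label ties them to separate cultures or RNA extractions, and every p-value below is therefore set against the spread among these arrays, which could be technical.

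ORC1 is a subunit of the origin recognition complex, which binds replication origins and, with CDC6 and CDT1, loads the MCM helicase before S phase. Lines with the same mutated gene are compared to see how much expression differs from line to line while the mutated gene is held in common. None of ORC1 to ORC6 had a probe set named here (0 of 6), so the mutated gene itself is not analysed here and the labels have no check of that kind.

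The values are log2 expression, 1 per probe set and array, so a difference of 1 is a 2-fold ratio. After a filter on dim probe sets 10797 genes were tested. Array medians over all probe sets lay between 3.87 and 3.96. Of 9 named markers of colorectal epithelial lines, 8 lay above the array median on all 4 arrays, with EPCAM at 9.91 to 10.24 and KRT18 at 10.64 to 11.88, and CEACAM5 lay below it on all 4. The mean level of 4 named fibroblast markers was 3.51 to 3.53 in ORC1B14 and 3.50 to 3.56 in ORC1BP32. DCN and LUM lay below the array median on all 4 arrays, and THY1 (4.37 to 4.46) and TAGLN (4.62 to 4.76) above it. The mean of 5 named blood cell markers was 4.90 to 5.21 in ORC1B14 and 4.83 to 5.08 in ORC1BP32. On all 4 arrays CD14 and LYZ lay below the array median, and CD4, CD8A and CD68 above it. CD68, a lysosomal protein, differed by 0.99 (adjusted p = 0.620). Of 10 named hepatocyte and kidney markers 6 lay above the median on all 4 arrays, and of 8 lung and breast markers 3. A level above the median was therefore not particular to the colorectal markers. Over the genes tested ORC1B14 replicate 1 correlated with its own replicate 2 at r = 0.973 and with ORC1BP32 replicate 1 at 0.978, so arrays of 1 number were as alike across the lines as arrays of 1 line. Replicate 2 of the lines correlated at 0.985.

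Differences between the lines were small for most genes. The median difference, ORC1B14 minus ORC1BP32, was -0.00091 and its SD over genes was 0.286, against 0.295 for ORC2B2 minus ORC2BP8. In limma, with an adjusted p under 0.05 as the threshold, 2 genes differed between the lines, 0.0185% of those tested: GLIS3-AS1 was higher and DSC3 lower in ORC1B14. The same fit called 24 genes between the ORC2 lines, 0.222% of those tested, and the difference between these counts was not tested. At an unadjusted p under 0.05, 574 genes (5.32%) differed between the ORC1 lines, 268 higher (2.48%) and 306 lower (2.83%) in ORC1B14, a share close to the threshold itself. Of the 574, 28 higher and 44 lower genes differed by at least 2-fold. A fit with the replicate number as a block called 11 genes, and 954 of 10797 reached an unadjusted p under 0.05, more than the 574 without it. Leaving out 1 array moved these counts: none was called without ORC1B14 replicate 1, ORC1BP32 replicate 2 or either ORC2BP8 array (363, 381, 606 and 608 genes at an unadjusted p under 0.05), 1 without ORC1BP32 replicate 1, 4 without ORC1B14 replicate 2 (1243 at an unadjusted p under 0.05) and 5 without either ORC2B2 array. The 24 calls between the ORC2 lines went to 11, 8, 2 and 4 without ORC2B2 replicate 1 or 2 or ORC2BP8 replicate 1 or 2. The difference had the same sign in both replicate numbers for 6680 genes, 61.9% of those tested.

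**Figure D1:**
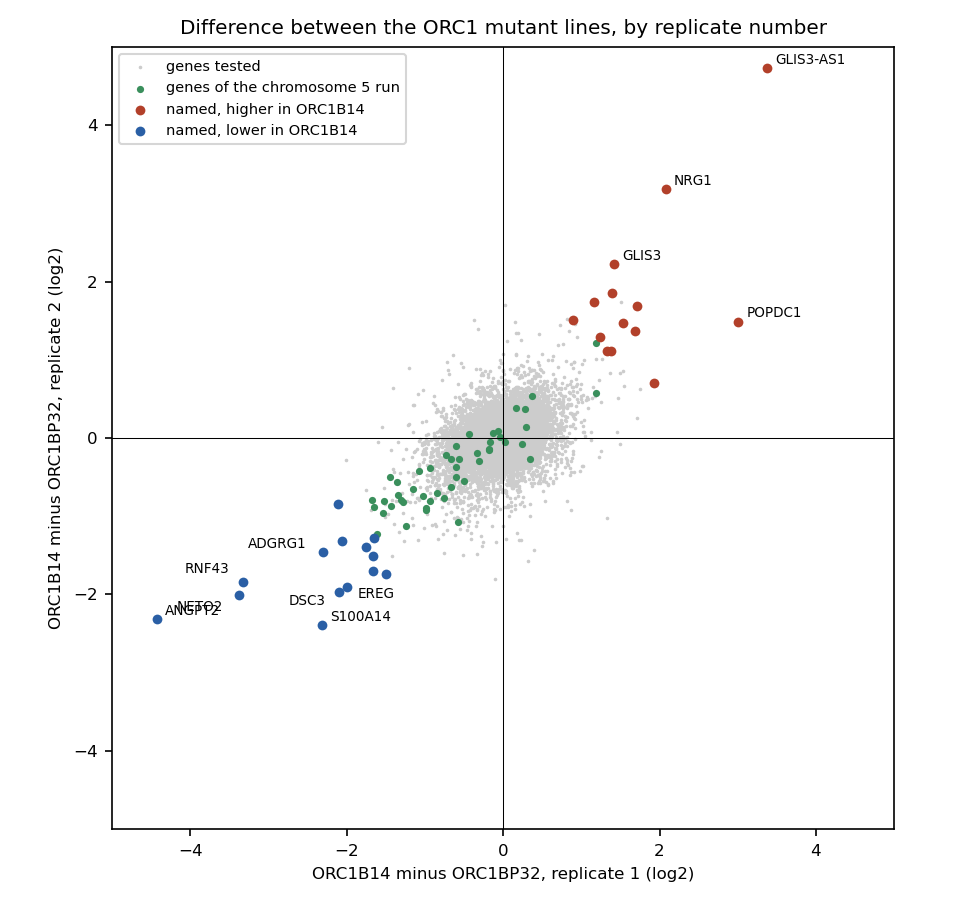
Each grey point is 1 of the 10797 genes tested, with the difference ORC1B14 minus ORC1BP32 (log2) between the arrays of replicate 1 on the x axis and of replicate 2 on the y axis. Red and blue points are the 14 highest and 14 lowest named genes and green points the 50 genes of a chromosome 5 run. GLIS3-AS1 stands farthest to the upper right, and the green points lie mostly below 0 on both axes.

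Promoter windows are shown of 3 genes, the 2 past the threshold and GLIS3, because GLIS3-AS1 is transcribed from within the GLIS3 locus on the opposite strand and the probe sets of both lay higher in ORC1B14. Each window is the 250 bases before a RefSeq transcription start in GRCh38.p14, 5′ to 3′ on the gene's own strand, with CG dinucleotides, where promoters can be methylated, in capitals.
GLIS3-AS1, chr9:3898396-3898645, plus strand: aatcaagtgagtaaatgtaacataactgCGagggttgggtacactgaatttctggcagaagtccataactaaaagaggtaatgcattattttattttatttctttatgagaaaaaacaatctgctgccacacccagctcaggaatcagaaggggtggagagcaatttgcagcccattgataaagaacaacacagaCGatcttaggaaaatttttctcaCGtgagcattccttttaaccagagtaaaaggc
GLIS3, chr9:4298497-4298746, minus strand: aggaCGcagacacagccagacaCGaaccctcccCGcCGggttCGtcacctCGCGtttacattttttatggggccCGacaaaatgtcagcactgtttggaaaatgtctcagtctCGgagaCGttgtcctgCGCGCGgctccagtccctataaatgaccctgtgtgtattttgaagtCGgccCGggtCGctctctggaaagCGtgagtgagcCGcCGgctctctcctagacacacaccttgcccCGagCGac
DSC3, chr18:31042743-31042992, minus strand: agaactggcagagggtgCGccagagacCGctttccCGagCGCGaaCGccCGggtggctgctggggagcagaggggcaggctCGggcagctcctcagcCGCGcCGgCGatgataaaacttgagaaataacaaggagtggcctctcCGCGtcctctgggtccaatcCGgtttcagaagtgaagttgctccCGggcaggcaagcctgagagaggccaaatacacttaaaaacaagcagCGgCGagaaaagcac
The GLIS3-AS1 window holds 3 CG dinucleotides, a count that 77.1% of 35116 RefSeq windows of this length reach or pass. The GLIS3 window shown holds 21 (30.2% of windows), that of a second GLIS3 start in the table, not shown, holds 2 (85.3%), and the DSC3 window 18 (36.8%), while the median window holds 11. DNA methylation was not measured here, and these counts describe the sequences only.

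GLIS3-AS1, a long non-coding RNA antisense to GLIS3 on chromosome 9, was the largest difference between the lines. Its values were 7.96 and 8.19 on the ORC1B14 arrays and 4.59 and 3.46 on the ORC1BP32 arrays, for replicates 1 and 2. WT had 3.72 and 5.20, ORC2B2 3.98 and 4.44, and ORC2BP8 4.03 and 3.79. Both ORC1B14 arrays therefore lay above all 8 other arrays, and the ORC1BP32 arrays lay among or below those of the other lines. The gene rose by 4.05 in ORC1B14 over ORC1BP32 (SE 0.45, adjusted p = 0.0254 in limma), and was higher in 2 of 2 replicate numbers. ORC1BP32 replicate 2 lay below the median probe set of its array, a dim level from which no exact ratio is drawn. The difference lay between 3.49 and 4.62 with each ORC1 array left out in turn, and leaving out an array of another line cannot move it. The call was lost when ORC1B14 replicate 1 or 2, ORC1BP32 replicate 2, or ORC2BP8 replicate 1 or 2 was left out. It was also lost with only the ORC1 arrays in the fit (adjusted p = 0.0571) and over all probe sets (0.160), and ranged from 1.02e-06 to 0.302 over the settings tried.

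GLIS3, which encodes a zinc finger transcription factor of pancreatic beta cells and thyroid, lay higher in ORC1B14 as well. Its brighter probe set read 7.46 and 7.56 in ORC1B14, 6.04 and 5.33 in ORC1BP32, and 4.81 and 5.09 in WT. The difference of 1.82 (SE 0.48) did not pass the test (adjusted p = 0.447), although the lines did not overlap. A second GLIS3 probe set differed by 0.46, so the probe sets of this gene disagree in size. The sources used here do not say which strand the probes read, so signal from GLIS3 and from its antisense RNA cannot be told apart where they overlap.

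DSC3 encodes desmocollin 3, a cadherin of desmosomes, the junctions that tie epithelial cells to each other through keratin filaments. It read 3.80 and 3.81 in ORC1B14, below the median probe set of both arrays, and 5.90 and 5.78 in ORC1BP32. WT lay higher, at 6.64 and 7.14, and ORC2BP8 at 6.64 and 6.46, while ORC2B2 lay low at 4.10 and 4.69. Both ORC1 lines thus lay below WT, ORC1B14 by more, and 1 of the ORC2 lines showed a like low level. The gene fell by 2.04 in ORC1B14 against ORC1BP32 (SE 0.24, adjusted p = 0.0254 in limma), in 2 of 2 replicate numbers. The call was lost without ORC1B14 replicate 1 (adjusted p = 0.258) or 2 (0.0594), ORC1BP32 replicate 1 (0.326) or 2 (0.302), or ORC2BP8 replicate 1 (0.0508) or 2 (0.0513), while the difference stayed between -2.10 and -1.97. It was also lost with only the ORC1 arrays (adjusted p = 0.0571) and over all probe sets (0.160), and ranged from 3.87e-05 to 0.326 over the settings tried.

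The other 13 genes named at each end were chosen for the size of this difference, with an unadjusted p under 0.05 and the same sign in both replicate numbers, so their gaps are a description, and none of these 26 passed the adjusted test. With the replicate number as a block 6 of them passed, namely NETO2 (adjusted p = 0.00822), LTN1 (0.00946), GRHL2 (0.0199), NRG1 (0.0250), AOAH (0.0345) and POPDC1 (0.0480). The 13 higher in ORC1B14 included ligands, inhibitors of signalling and secreted proteins. NRG1, a ligand of the ERBB receptors, read 5.58 and 7.23 in ORC1B14 and 3.50 and 4.04 in ORC1BP32 (difference 2.63, adjusted p = 0.349), with ORC1BP32 replicate 1 below the array median. WT had 3.85 and 4.67, so NRG1 was highest in ORC1B14 among these 3 lines, while ORC2BP8 had 5.38 and 7.36. EDN1, the precursor of the vasoactive peptide endothelin, read 7.13 and 6.64 in ORC1B14, 6.23 and 5.14 in ORC1BP32 and 4.29 and 4.71 in WT (difference 1.20, adjusted p = 0.802). Here both lines lay above WT.

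SPRY2, which dampens receptor tyrosine kinase signalling, read 8.25 and 7.16 against 6.32 and 6.45 in ORC1BP32 (difference 1.32, adjusted p = 0.404). SMAD6, an inhibitor of BMP signalling, read 6.37 and 6.39 against 5.12 and 5.10, with WT at 4.97 and 5.05 (difference 1.27, adjusted p = 0.337). The spread within each ORC1 line was small for SMAD6, and ORC1BP32 lay near WT. ORC2B2 (6.57 and 6.12) and ORC2BP8 (6.77 and 5.76) also lay above WT, so the higher SMAD6 level was not particular to ORC1B14. IRS1, the adaptor of the insulin receptor, read 6.87 and 7.66 against 5.71 and 5.93 (difference 1.45, adjusted p = 0.259), with WT at 7.36 and 7.28. DDIT4, a stress-induced inhibitor of mTORC1, read 8.60 and 8.17 against 7.28 and 7.06 (difference 1.22, adjusted p = 0.325), with WT at 8.47 and 8.57. For IRS1 and DDIT4 it was ORC1BP32, of these 2 lines, that lay away from WT. DDIT4 was also low in ORC2B2 (7.41 and 6.90) and ORC2BP8 (7.18 and 6.43), so its low level was not particular to ORC1BP32. The ORC2 lines did not share the low IRS1 level, with means of 7.46 in ORC2B2 and 7.95 in ORC2BP8.

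THBS1, which encodes the matrix protein thrombospondin, read 10.13 and 9.27 in ORC1B14 and 8.44 and 7.90 in ORC1BP32 (difference 1.53, adjusted p = 0.449), both above the 6.75 and 7.40 of WT. SUSD2, a membrane protein, read 9.14 and 9.24 against 7.43 and 7.54 (difference 1.70, adjusted p = 0.766), with WT at 6.21 and 6.67. The ORC2 lines also lay above WT for both genes. THBS1 read 9.56 and 8.52 in ORC2B2 and 8.56 and 7.91 in ORC2BP8, and SUSD2 8.68 and 8.93, and 9.59 and 7.10. POPDC1, a cAMP-binding membrane protein, read 8.66 and 7.65 against 5.65 and 6.16 (difference 2.25, adjusted p = 0.204). WT, at 7.01 and 7.06, lay between the lines. AOAH, an enzyme that removes acyl chains from lipopolysaccharide, read 5.00 and 5.44 against 3.61 and 3.59, with WT at 3.64 and 3.35 (difference 1.63, adjusted p = 0.103), and it lay below the array median on both ORC1BP32 and both WT arrays. LOXL4, of the lysyl oxidase family that cross-links collagen, differed by 1.50 (adjusted p = 0.492), and MXRA7 by 1.25 (adjusted p = 0.259).

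**Figure D2:**
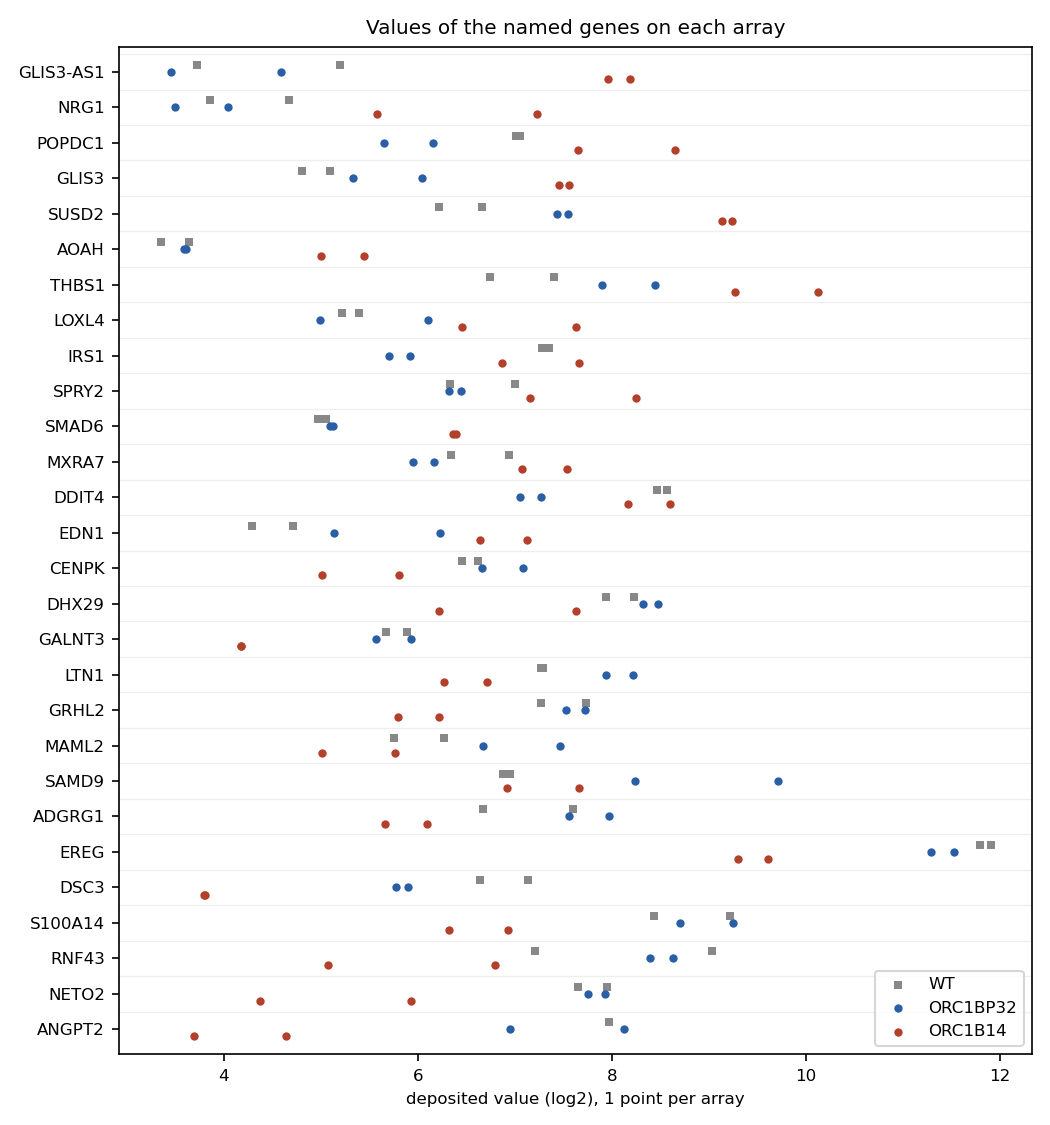
The x axis gives the deposited log2 value and each row is 1 of the 28 named genes, ordered by the difference between the lines. Red points are the 2 ORC1B14 arrays, blue points the 2 ORC1BP32 arrays and grey squares the 2 WT arrays. Red and blue points do not overlap in any row, which the choice of these genes favours, and the WT squares lie beside the blue points in rows such as NETO2, GRHL2 and SMAD6.

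The 13 genes at the lower end, beside DSC3, included ligands, a receptor and epithelial regulators. ANGPT2, a ligand of the endothelial TIE receptors, read 3.69 and 4.64 in ORC1B14 and 8.12 and 6.95 in ORC1BP32, with WT at 7.97 on both arrays (difference -3.37, adjusted p = 0.274). Its level on ORC1B14 replicate 1 was below the array median. RNF43, a ubiquitin ligase that removes WNT receptors from the cell surface, read 5.07 and 6.80 against 8.39 and 8.63 (difference -2.58, adjusted p = 0.352), with WT at 9.03 and 7.21. S100A14, a calcium-binding protein of epithelia, read 6.93 and 6.32 against 9.25 and 8.71 (difference -2.35, adjusted p = 0.191), with WT at 9.22 and 8.44. In these 3 genes ORC1BP32 lay at or near the WT level and ORC1B14 below it. ORC2B2 also lay below WT for ANGPT2 (5.40 and 3.99) and S100A14 (6.07 and 7.45), and ORC2BP8 for ANGPT2 (6.89 and 4.26). RNF43 read 8.02 and 7.57 in ORC2B2 and 7.69 and 8.88 in ORC2BP8, and S100A14 8.23 and 8.18 in ORC2BP8.

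EREG, a ligand of the EGF receptor, was bright on every array, at 9.31 and 9.61 in ORC1B14, 11.30 and 11.53 in ORC1BP32 and 11.91 and 11.79 in WT (difference -1.95, adjusted p = 0.372). GRHL2, a transcription factor that maintains epithelial junction genes, read 6.22 and 5.80 against 7.72 and 7.53, with WT at 7.73 and 7.27 (difference -1.62, adjusted p = 0.104). GALNT3, which starts mucin-type O-glycosylation, read 4.18 on both ORC1B14 arrays against 5.93 and 5.57, with WT at 5.89 and 5.67 (difference -1.57, adjusted p = 0.309). The arrays of the lines stood well apart for both, with ORC1BP32 among the WT values. ORC2B2 also lay low, at 4.86 and 5.19 for GRHL2 and 3.83 and 4.90 for GALNT3. ORC2BP8 read 7.42 and 7.02 for GRHL2 and 6.17 and 5.31 for GALNT3. Low levels of these genes were thus not particular to ORC1B14. NETO2, an auxiliary subunit of kainate receptors, read 4.38 and 5.93 against 7.75 and 7.93, with WT at 7.65 and 7.96 (difference -2.69, adjusted p = 0.112). ADGRG1, an adhesion G protein-coupled receptor, read 5.66 and 6.10 against 7.97 and 7.56 (difference -1.88, adjusted p = 0.269).

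For 3 further genes the higher level of ORC1BP32 was the one that departed from WT, or both lines did. SAMD9, an interferon-inducible gene, read 7.66 and 6.92 in ORC1B14 and 9.72 and 8.24 in ORC1BP32, against 6.95 and 6.88 in WT (difference -1.69, adjusted p = 0.747). MAML2, a coactivator of NOTCH, read 5.01 and 5.76 against 6.67 and 7.46, with WT at 5.75 and 6.27 (difference -1.68, adjusted p = 0.431), while a dim second probe set below the filter differed by 0.05. LTN1, a ubiquitin ligase of ribosome quality control, read 6.27 and 6.71 against 7.94 and 8.22, with WT between the lines at 7.29 and 7.28 (difference -1.59, adjusted p = 0.0826).

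In most of the 28 named genes ORC1B14 was the line farther from WT. This held for 11 of the 14 higher genes and 11 of the 14 lower genes. The median distance from WT over the 14 higher genes was 1.73 for ORC1B14 and 0.66 for ORC1BP32, and over the 14 lower genes 1.55 and 0.41. Both distances use the same WT arrays, and among all genes tested ORC1B14 was also the farther line, in 6539 of 10797. Among the 574 genes at an unadjusted p under 0.05 it was farther in 429. Of these 28, POPDC1, MXRA7, LTN1, DHX29 and CENPK had both arrays of 1 line above and both arrays of the other below both WT arrays.

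**Figure D3:**
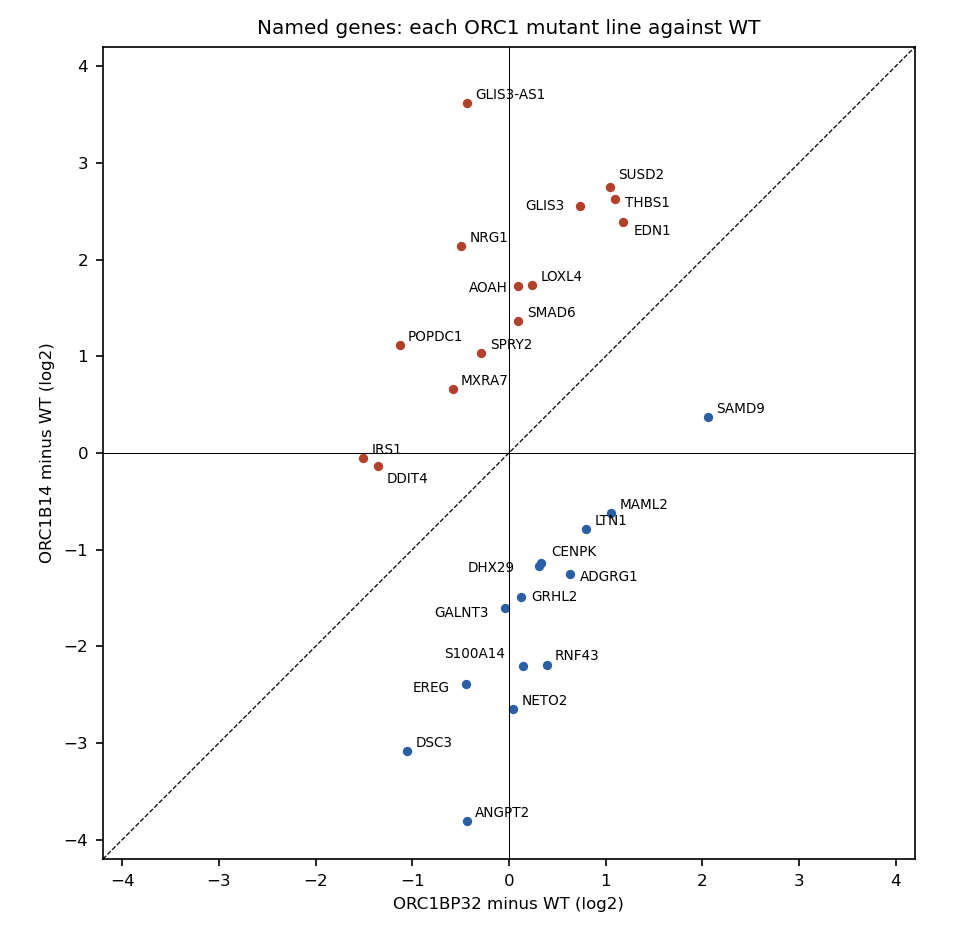
The 28 named genes are plotted by the mean of ORC1BP32 minus WT on the x axis and of ORC1B14 minus WT on the y axis, both in log2, with the same 2 WT arrays in both. Red genes lie above the dashed line of equal values and blue genes below it by choice. On the x axis 6 of the 14 red and 9 of the 14 blue genes lie within 0.5 of 0. On the y axis 2 red genes, IRS1 and DDIT4, and 1 blue gene, SAMD9, do.

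DHX29, a helicase of translation initiation, and CENPK, a kinetochore protein, belonged to a stretch of chromosome 5 in which neighbouring genes were lower together in ORC1B14. A window of 25 neighbouring genes was moved along each chromosome in RefSeq order, and windows with a median difference of at least 0.4 in size, of 1 sign, in both replicate numbers were joined. This gave 1 run, on chromosome 5 from MRPS30 to FOXD1, with 50 genes tested. Replicate 1 alone gave 7 runs, replicate 2 alone 4 and windows of 15 genes 4, and each time 1 of them was a chromosome 5 run of the same sign. Replicate 2 alone also gave a chromosome 5 run higher in ORC1B14, from RAI14 to PAIP1 (25 genes). Chromosome 17 gave a higher run in each of these settings, and a lower one with replicate 2 alone and with windows of 15 genes. Of the 50 genes, 37 were below 0 in both replicate numbers and 6 above 0 in both, and the median difference was -0.66 in replicate 1 and -0.46 in replicate 2. The most extreme window on any other chromosome reached 0.34, on chromosome 17. At an unadjusted p under 0.05, 26 of the 50 genes (52%) were lower in ORC1B14, against 3.43% on the rest of chromosome 5 and 2.57% on the other chromosomes, and 1 was higher. The run was found in these same differences, so these shares describe it and are no test. None of its genes passed the adjusted test, while CDK7 passed with the replicate number as a block (adjusted p = 0.0464).

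Genes of many functions lay in the run. DHX29 read 6.22 and 7.63 in ORC1B14 and 8.32 and 8.47 in ORC1BP32 (difference -1.47, adjusted p = 0.349). CENPK read 5.01 and 5.80 against 6.66 and 7.08 (difference -1.47, adjusted p = 0.209), and TRAPPC13, of a vesicle tethering complex, 4.02 and 5.28 against 5.63 and 6.51 (difference -1.42, adjusted p = 0.479). Replicate 2 of ORC1B14 lay closer to ORC1BP32 than replicate 1 did in all 3. CDK7, the kinase of the CDK-activating complex and of TFIIH, read 6.89 and 7.53 against 8.54 and 8.42 (difference -1.27). RAD17, which loads the checkpoint clamp at damaged DNA, read 7.13 and 7.69 against 8.42 and 8.51 (difference -1.05). MTREX, an RNA helicase of the nuclear exosome, differed by -1.23, ERBIN, a scaffold of the basolateral membrane, by -1.15, and CCNB1, the mitotic cyclin B, by -0.55. PLK2, a kinase that p53 induces, lay the other way at 1.20, with 9.23 and 9.24 against 8.05 and 8.02. It was also high in ORC2B2 (9.61 and 8.93) and ORC2BP8 (9.97 and 9.04), with WT at 7.26 and 7.63. TMEM171, MAP1B and CENPH were also above 0 in both replicate numbers (0.88, 0.45 and 0.33, adjusted p = 0.999 each). The first and last genes of the run, MRPS30 and FOXD1, differed by 0.28 and 0.22, so the lower levels began and ended inside it. TRAPPC13, CDK7, RAD17, MTREX, ERBIN, CCNB1 and PLK2 had adjusted p-values between 0.188 and 0.620.

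Of the 4 mutant lines only ORC1B14 had a run median well below WT. It was -0.89 for ORC1B14 minus WT and -0.01 for ORC1BP32 minus WT, with -0.01 for both ORC2B2 and ORC2BP8. By replicate number the ORC1B14 median was -0.96 and -0.61, and that of ORC1BP32 -0.06 and -0.03. Not every gene followed the median. CCNB1 lay at 0.02 against WT in ORC1B14 and at 0.57 in ORC1BP32. The run held 8.50% of the 306 genes lower in ORC1B14 at an unadjusted p under 0.05. Copy number was not measured here.

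**Figure D4:**
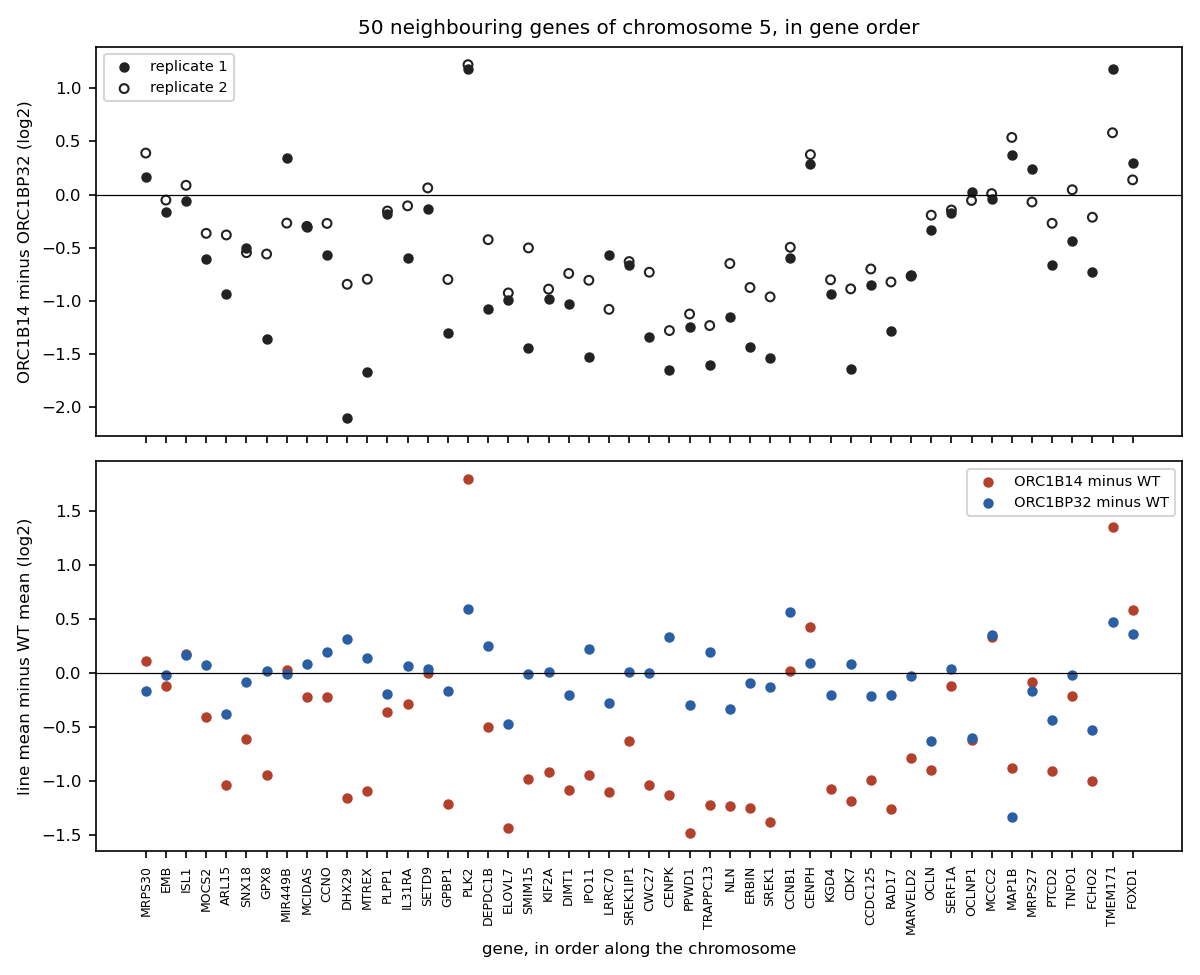
The 50 genes of the run stand in their order along chromosome 5 on the x axis, with no scale of distance. The upper panel gives ORC1B14 minus ORC1BP32 (log2) in replicate 1 (filled) and replicate 2 (open), and the lower panel the line mean minus the WT mean for ORC1B14 (red) and ORC1BP32 (blue). From DHX29 to MARVELD2 most red points lie near -1 and most blue points near 0, with PLK2 far above.

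Gene lists were then read against all genes tested, of which 2.48% were higher and 2.83% lower at an unadjusted p under 0.05. The lists hold 949 genes, of which 480 were tested, and no list member but DSC3 passed the adjusted test. Interferon-stimulated genes, which cells switch on when they sense viral or misplaced nucleic acid, had 21 of 23 tested members below 0, 8 of them at an unadjusted p under 0.05 and none of the opposite sign, with a median of -0.43 against -0.00091 for all genes. The list median was -0.69 in replicate 1 and -0.28 in replicate 2. RIGI and IFIH1, sensors of double-stranded RNA, differed by -0.96 (adjusted p = 0.895) and -1.08 (adjusted p = 0.908). RIGI read 8.20 and 7.28 in ORC1B14, 9.19 and 8.22 in ORC1BP32 and 7.62 and 7.71 in WT, and IFIH1 6.26 and 5.78, 7.78 and 6.42, and 5.75 and 6.53. IFITM1, a membrane protein that blocks viral entry, read 6.10 and 5.80 against 7.42 and 6.24. The transcription factor IRF7 (-0.71), HERC6 (-0.79), SLFN5 (-0.61) and IFIT2 (-0.57) were the remaining members beside SAMD9, the lowest, and IFI35 was the highest (0.61, adjusted p = 0.981). The list median against WT was 0.64 for ORC1BP32 and 0.09 for ORC1B14. For ORC1B14 the replicate numbers disagreed, with 0.58 in replicate 1 and -0.11 in replicate 2. SLFN5 was below WT in both lines (-1.85 for ORC1B14 and -1.24 for ORC1BP32). ORC1BP32 replicate 1 was the highest of the 4 ORC1 arrays for all 8 genes, and without it the list median was -0.10. It was -0.16 without ORC1B14 replicate 2, -0.67 without ORC1B14 replicate 1 and -0.83 without ORC1BP32 replicate 2.

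Genes of the ATF4 and unfolded protein response, which adapt amino acid supply and protein folding to stress, lay the other way. Of 14 tested, 13 were above 0 and 4 reached an unadjusted p under 0.05, all higher in ORC1B14, and the median was 0.28. Beside DDIT4 these were the transcription factor DDIT3 (0.64), the secreted glycoprotein STC2 (0.62) and PHGDH, the entry enzyme of serine synthesis (0.60, with 7.22 and 7.28 against 6.75 and 6.55, and WT at 7.59 and 7.78), while CRELD2 was the lowest (-0.20). The adjusted p-values of the 4 lay between 0.325 and 0.906. Against WT the list median was -0.19 for ORC1B14 and -0.66 for ORC1BP32, so both lines lay below WT and ORC1BP32 by more. Among 17 aminoacyl-tRNA synthetases TARS1 (0.43) and AARS1 (0.42) were higher at an unadjusted p under 0.05 and RARS1 was the lowest (-0.18), with a list median of 0.13 (0.04 to 0.27 with each array left out).

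The lists of cell contacts and of signalling pathways held members in both directions. Of 27 epithelial junction and polarity genes 4 were lower at an unadjusted p under 0.05, namely GRHL2, the transcription factor OVOL1 (-0.79) and the tight junction genes MARVELD2 (-0.76) and TJP1 (-0.38), and none was higher. The list median was -0.15, EHF was the highest member (0.52, adjusted p = 0.999), and MARVELD2 lies in the chromosome 5 run. Of 11 cadherins and protocadherins, the large FAT cadherins went opposite ways, with FAT4 at 0.81 and FAT1 at -0.39, beside DSC3. Of 13 TGF-beta and BMP genes 3 were higher, THBS1, SMAD6 and LTBP1, which binds latent TGF-beta (0.77), and none lower, with a median of 0.32 and LEMD3 lowest (-0.38). Of 23 ERK feedback and growth factor genes SPRY2, IGFBP6 (0.98) and the receptor FGFR1 (0.59) were higher and EREG was lower. Of 16 axon guidance and synapse genes NETO2, the ephrin EFNB2 (-1.11), STXBP6 (-0.75) and CNTN1 (-0.54) were lower and none was higher, with SYT1 highest (0.54). Of 9 genes of mesenchymal transition the repressor SNAI2 was lower, at 4.42 and 4.24 against 5.58 and 4.95 (-0.94, adjusted p = 0.349), and AXL was the highest (0.71, adjusted p = 0.966). The WNT list of 14 held RNF43 and the receptor FZD7 (0.67). Without ORC1B14 replicate 2 the median of the epithelial list was -0.06 and that of the TGF-beta list 0.48.

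Of 15 genes of origin licensing and the MCM helicase none reached an unadjusted p under 0.05, with a median of 0.05 (-0.12 to 0.21 with each array left out) and a range from CDC7, the kinase that activates the helicase (-0.47), to MCM4 (0.23). Against WT the list median was 0.68 for ORC1B14 and 0.57 for ORC1BP32. Of 15 replication fork genes none reached it either, from CLSPN (-0.32) to RECQL4 (0.26), with a median of 0.04 (-0.13 to 0.23 with each array left out). Among 23 genes of the G1/S transition CCNE2, a cyclin E (-0.73), and CDK6 (-0.68) were lower and E2F1 was the highest (0.33). CCNE2 read 6.69 and 7.31 in ORC1B14, 7.61 and 7.86 in ORC1BP32 and 6.13 and 6.53 in WT. Of 25 mitosis genes KIF20A was higher (0.42) and CCNB1 lower. Of 18 checkpoint and homologous recombination genes RAD1, a subunit of the checkpoint clamp, was higher (0.48) and RAD17 lower, and the latter lies in the chromosome 5 run. Among 13 p53 targets PLK2, which lies in the chromosome 5 run, was higher and GDF15 the lowest (-0.63, adjusted p = 0.999). Of the 13, 9 were below 0, with a list median of -0.22 (-0.29 to -0.15 with each array left out).

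Of 18 sterol and fatty acid synthesis genes 3 were lower in ORC1B14 at an unadjusted p under 0.05 and none was higher. STARD4, a sterol carrier, read 7.07 and 7.93 against 8.35 and 8.89 (-1.12, adjusted p = 0.361), IDI1 differed by -0.58 and the desaturase SCD by -0.34, while SQLE was the highest (0.70, adjusted p = 0.999). The list median was -0.08, and -0.01 without ORC1BP32 replicate 1, -0.15 without ORC1B14 replicate 1, -0.16 without ORC1B14 replicate 2 and -0.20 without ORC1BP32 replicate 2. In 8 of the 32 lists with at least 5 tested members no gene reached an unadjusted p under 0.05.

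**Figure D5:**
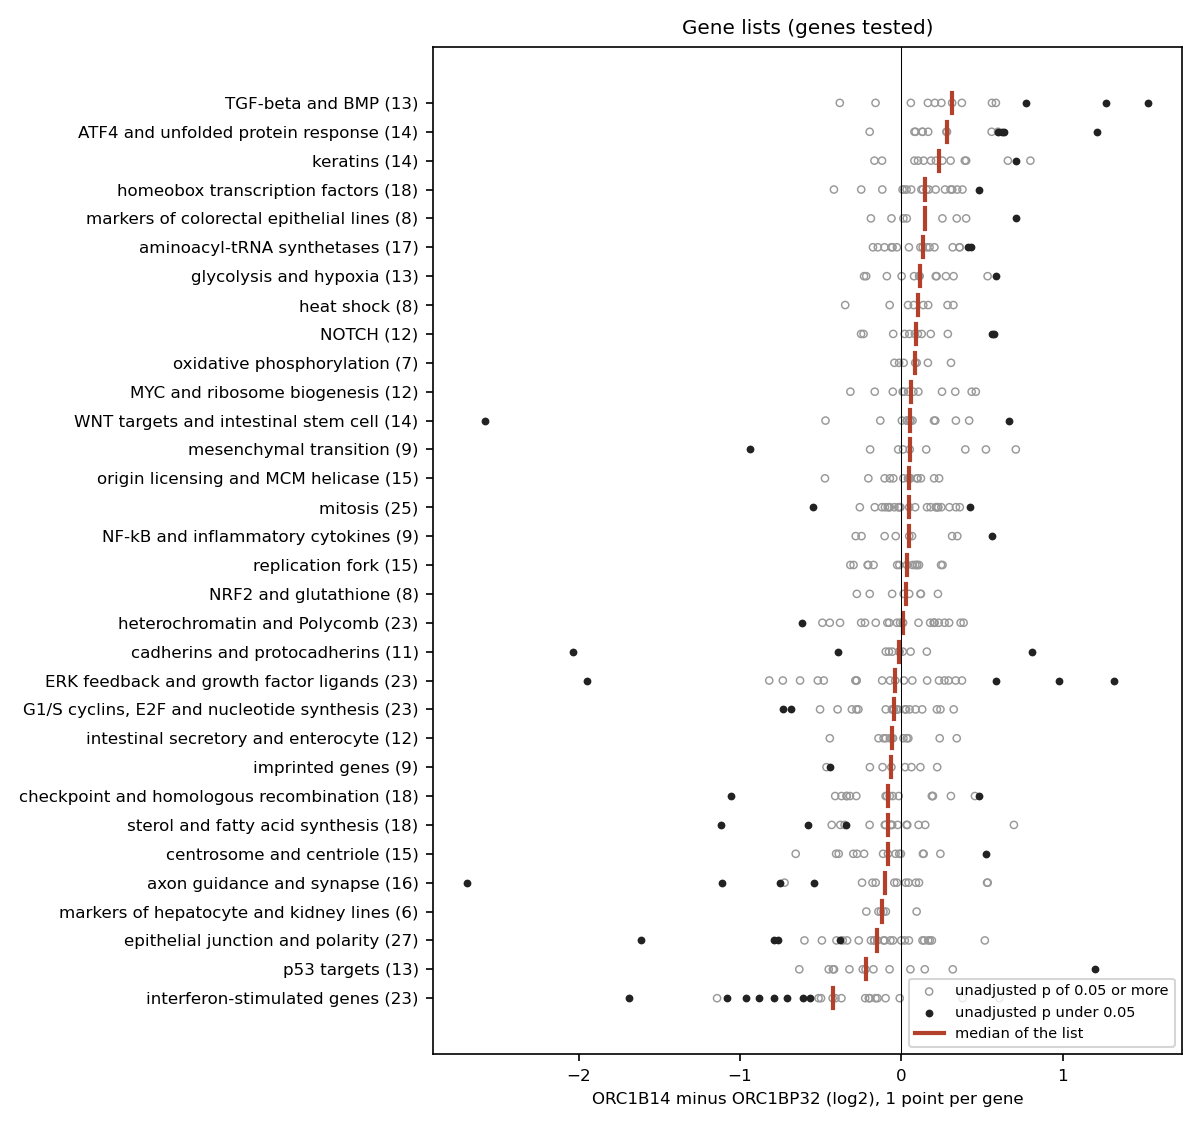
Each row is 1 of the 32 gene lists with at least 5 tested members, with their number in parentheses, and each point is 1 gene at its difference ORC1B14 minus ORC1BP32 (log2). Filled points have an unadjusted p under 0.05, open points do not, and the red bar is the list median. Interferon-stimulated genes have the lowest median (-0.43) and TGF-beta and BMP genes the highest (0.32).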

How the data were processed

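Total RNA of 5 HCT116 lines, 2 arrays each, was measured on Affymetrix arrays, and the authors deposited 1 log2 value per probe set and array (53617 probe sets, 10 arrays). Affymetrix Expression Console is named in the submitters' processing notes. How arrays were normalized and which annotation and build were used is not given in the sources used here, nor is the base of the logarithm. The values were read as log2 and used without further scaling, and fold ratios rest on that reading. Precision is limited by the number of arrays, 2 per line.

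The platform's annotation named probe sets, with 1 symbol for 16098, several for 0 and none for 37519. A probe set was kept at or above its array's median on at least 2 arrays, and the brightest kept probe set stood for a gene (421 genes had several). Differences were fitted in R 4.3.3 with limma 3.58.1, lmFit on 5 line means over all 10 arrays and eBayes with an intensity trend (5 residual and 5.83 prior degrees of freedom), so the ORC1 lines also take their spread from the other lines. Adjusted p-values are Benjamini-Hochberg over 10797 genes, two-sided, threshold 0.05. The code of the fit was tried on simulated arrays with independent noise and no replicate-number effect, so this does not bear on the counts above. Gene order came from RefSeq (GRCh38.p14), used only for names, order and promoter windows.

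Genes were named as the 14 highest and 14 lowest differences, the highest and lowest member of lists, and, in a run, the ends and 3 largest differences. The 28 also had an unadjusted p under 0.05 and 1 sign in both replicate numbers. XIST and Y-linked genes were left out. Genes named outside this rule (other list members at an unadjusted p under 0.05, and CDK7, MTREX, ERBIN, RAD17 and CCNB1 of the run) were chosen after their values were seen. The comparison, the lists and the rules were chosen with earlier results of these data known. The labels do not say that a replicate number marks a shared culture, batch or day, so it entered as a block only as an alternative. Other alternatives were quantile normalization, array centring, other filters, the mean over probe sets, the ORC1 arrays alone, no trend, all probe sets, other window sizes and each array left out.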

Additional observations from a re-analysis of the deposited data

Results flagged for a closer look

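GLIS3-AS1 and DSC3 appear here because the effects of the 2 ORC1 lines against WT differed by the test of that difference itself, by 4.05 and -2.04 (log2), with an adjusted p of 0.0254 for both in limma. Genes named by the rule above, as the highest or lowest differences, list extremes or run genes, were also placed against WT. In 11 others of these, every array of 1 ORC1 line lay above both WT arrays and every array of the other below them. The difference between the lines missed the adjusted threshold in each. In POPDC1 (2.25, adjusted p = 0.204), MXRA7 (1.25, adjusted p = 0.259), FZD7 (0.67, adjusted p = 0.895), HK1 (0.59, adjusted p = 0.906), PITX1 (0.48, adjusted p = 0.929) and CDX1 (0.34, adjusted p = 0.991) ORC1B14 was the line above WT. In LTN1 (-1.59, adjusted p = 0.0826), DHX29 (-1.47, adjusted p = 0.349), CENPK (-1.47, adjusted p = 0.209), STARD4 (-1.12, adjusted p = 0.361) and SNAI2 (-0.94, adjusted p = 0.349) ORC1BP32 was. OVOL1 (-0.79, adjusted p = 0.554) and CDK7 (-1.27, adjusted p = 0.188), named outside that rule, also had ORC1BP32 above and ORC1B14 below both WT arrays.

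Probe sets without a gene name are described nowhere above, and they entered only the fit over all probe sets. When all probe sets were fitted, 2 unnamed ones, probe set 17118524 and probe set 17118530, passed with a difference of -3.94 each (adjusted p = 0.000677). Their values were identical on every array, so they count as 1 measurement. It read 7.51 and 7.22 in ORC1BP32 and 3.20 and 3.65 in ORC1B14. WT had 2.68 and 2.95, and the 4 ORC2 arrays 2.74 to 2.99, so ORC1BP32 stood above all 8 other arrays.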

How the results depend on the processing

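The 116 genes named or counted in the lists and the run gave 1151 values, 1 per gene and setting. These came from fits with another normalization, filter, block or set of arrays, and none changed sign. Most of these settings cannot move a difference between line means. The block, the ORC1 arrays alone, no trend, the filters and all probe sets leave it as it is. Only quantile normalization, array centring and the mean over probe sets could change a sign. When each array was left out, 5 genes changed sign: CDC7 (range -1.04 to 0.10), CLSPN (-0.88 to 0.25), SYT1 (-0.028 to 1.10), FOXD1 (-0.20 to 0.63) and RARS1 (-0.47 to 0.12). Only leaving out an ORC1 array can move a difference between the ORC1 lines or a list median. A fit with the replicate number as a block called 11 genes between the ORC1 lines, and 954 reached an unadjusted p under 0.05, while 94 were called between the ORC2 lines. With only the ORC1 arrays limma called 0 genes (503 at an unadjusted p under 0.05), and with only these arrays and the replicate block 331 (1825 at an unadjusted p under 0.05), on 1 residual degree of freedom. Over all probe sets, 1184 reached an unadjusted p under 0.05 between the ORC1 lines, and limma called 0 between the ORC2 lines (1238 at an unadjusted p under 0.05). Leaving out 1 array gave 0 to 5 calls and 363 to 1243 genes at an unadjusted p under 0.05 between the ORC1 lines, and 2 to 23 calls between the ORC2 lines, with the lone array assumed to vary like the others. The replicate-number deviations of the 2 ORC1 lines correlated at 0.568 over genes, and those of all pairs of lines at 0.081 to 0.568. Windows of 15 genes gave 4 runs, and replicate 2 or replicate 1 alone gave 4 or 7, each with a chromosome 5 run of the same sign. Each also gave a chromosome 17 run higher in ORC1B14. Of 32 list medians 30 kept their sign under 5 other normalizations and filters and 14 when each array was left out, among them the interferon list (-0.83 to -0.10), the ATF4 list (0.25 to 0.31) and the TGF-beta list (0.32 to 0.48).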
